A study of Mus musculus with 21 samples.

Results

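The genes described here are the 8 enzymes and partner proteins that set, copy and remove 5-methylcytosine in the mouse genome: the methyltransferases Dnmt1, Dnmt3a and Dnmt3b, their partners Dnmt3l and Uhrf1, and the dioxygenases Tet1, Tet2 and Tet3. They were taken by name from the table of normalized expression values the authors deposited, and all 8 were found among its 16443 genes. RNA had been sequenced from 2TS22C cells, a mouse embryonic stem cell line, in 21 libraries that fall into 8 groups of cell line by medium. The untransduced cells, called NTC, are labelled wild type, with no treatment given. The 3 rescued lines had been transduced with a lentivirus carrying SOX2, the engineered factor SOX17FNV (called FNV) or a factor labelled miniSOX, had their endogenous SOX2 silenced, and are labelled as treated with doxycycline. Every rescued group therefore differs from NTC in the virus, the silencing and the doxycycline as well as in the factor, and in that comparison these cannot be told apart. The media were serum with LIF, called SL, and 2i, which the series' text names as serum and LIF with 2i, the usual name for a pair of inhibitors of MEK and GSK3. NTC had 3 libraries in 2i, SOX2 and FNV 4 each and miniSOX 2, while every line had 2 in SL. The labels do not say that a rescued line is 1 clone or several.

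DNA methylation in mammals sits mostly on cytosines followed by guanine. Dnmt3a and Dnmt3b place it on unmethylated DNA, and Dnmt3l, which has no catalytic activity of its own, binds and stimulates them in stem cells and germ cells. Uhrf1 recognises the half-methylated DNA left by replication and recruits Dnmt1, which copies the mark onto the new strand. Tet1, Tet2 and Tet3 oxidise 5-methylcytosine in a reaction that uses iron and ketoglutarate, a step on the way to its removal. Mouse embryonic stem cells kept in serum are known for a highly methylated genome, and cells kept in 2i for a much less methylated one. Only RNA was measured here, so nothing below is a level of DNA methylation, protein or enzyme activity.

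The catalytic part of each enzyme distinguishes the families, and the stretches that encode it are shown for that reason. In the methyltransferases the cysteine of a Pro-Cys pair attacks the cytosine. A search of the longest open reading frame of each gene's GENCODE M21 transcripts looked for that pair inside a longer pattern. The pattern was glycine, then glycine, proline or serine, then serine or proline, then the pair. Pro-Cys pairs outside that pattern were not counted in any gene. It was found once in each of 3 genes, with the codons of the pair in capitals, all 5′ to 3′ on the coding strand.
Dnmt3a: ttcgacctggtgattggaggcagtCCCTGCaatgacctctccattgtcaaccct
Dnmt3b: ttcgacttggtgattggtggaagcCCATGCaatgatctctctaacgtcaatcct
Dnmt1: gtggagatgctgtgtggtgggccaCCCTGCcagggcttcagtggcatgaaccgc
The proline lies at residue 705 of 908 in Dnmt3a, 657 of 860 in Dnmt3b and 1281 of 1673 in Dnmt1. The same search matched nothing in the reading frames of Dnmt3l (421 residues) or Uhrf1 (782 residues). In the Tet genes the capitals mark the codons of the His-x-Asp motif, whose histidine and aspartate hold the iron.
Tet1: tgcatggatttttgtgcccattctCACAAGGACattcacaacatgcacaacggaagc
Tet2: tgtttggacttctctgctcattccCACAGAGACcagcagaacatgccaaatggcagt
Tet3: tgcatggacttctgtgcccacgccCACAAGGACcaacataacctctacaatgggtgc
Its histidine is residue 1652 of 2039 in Tet1, 1303 of 1920 in Tet2 and 1085 of 1803 in Tet3.

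On GRCm38 (mm10) with the GENCODE M21 annotation the 8 genes lie apart from each other. Dnmt3a is at chr12:3806007-3914443 and Dnmt3b at chr2:153649450-153687730, both on the plus strand. Dnmt3l is at chr10:78041947-78063622 and Uhrf1 at chr17:56303321-56323486, also on the plus strand. Dnmt1 is on the minus strand at chr9:20907209-20959888, as are Tet1 at chr10:62804570-62908996, Tet2 at chr3:133463679-133545139 and Tet3 at chr6:83362373-83459084. Exons of an opposite-strand gene overlap those of Dnmt3a by 133 bases (Dnmt3aos), Dnmt3l by 67 bases (Aire) and Tet2 by 43 bases (Gm42567). No source used here says whether reads were counted by strand, so reads from such pairs may not have been told apart.

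The deposited values are whole numbers that had been normalized between libraries. Their totals ran only from 14044316 to 14047262, so they carry no depth, and counting error cannot be stated. Above a value of 2000, 96.9% of the steps in a library were shared by exactly 10 genes within a tolerance of 2, with a median of 0.862% between steps, which is why a value such as 5573 recurs below. Values are therefore compared between libraries for 1 gene and not between genes. The libraries were deposited as 2 sets. The first holds replicates 1 and 2 of each medium for NTC, SOX2 and FNV. The second holds the 2i libraries NTC p31, SOX2 p21, SOX2 p31, FNV p21 and FNV p31, together with the whole of miniSOX. NTC p31 is thus the only untransduced library of the second set, and any value below against NTC inside that set compares with it alone, its spread being taken from the other groups. It stood apart from NTC replicates 1 and 2 in 2i in its markers, with sums of 49100 against 81301 and 82259 for pluripotency and 2748 against 1228 and 1254 for trophectoderm. The formative and primed list summed to 2591 against 1411 and 1336, but it holds Dnmt3b itself (1716 against 713 and 634), which made most of that difference. A term for the deposited set was part of the test, and for miniSOX against the other lines in SL that term rests on 2i libraries alone. The NTC, SOX2 and FNV titles of the second set name biological replicates. Those of miniSOX are numbered as in the first set, and no label says whether replicates 1 and 2 of the first set or of miniSOX were grown apart. Their p-values then measure only the spread between these libraries, which may be technical. The labelled cell type was checked against its markers: Pou5f1 stood between 6245 and 16422 in all libraries, and the 10 pluripotency markers summed to between 49100 and 92978. The sum of 10 feeder fibroblast markers ran from 133 to 2005, highest in miniSOX in SL (1840 and 2005). The 8 trophectoderm markers summed to between 825 and 1414 in SOX2 in 2i and to 16056 and 16172 in miniSOX in SL. Most of that sum in miniSOX in SL was the keratins Krt8 and Krt18, with means of 8146.5 and 5475. In bulk RNA, fewer cells of a type and less RNA per cell cannot be told apart.

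The de novo group separated the media most clearly. In untransduced cells Dnmt3a had values of 663, 636 and 1065 in 2i (replicates 1, 2 and p31) against 2340 and 2054 in SL. The SOX2 line had 647, 581, 343 and 399 in 2i (replicates 1, 2, p21 and p31), with 5395 and 5154 in SL. For the FNV line they were 745, 749, 730 and 532 in 2i against 4454 and 3237 in SL, and for miniSOX 943 and 870 against 2837 and 2781. Each SL library lay above each 2i library, and the SOX2 line held both ends of the order of group means, highest in SL (5274.5) and lowest in 2i (492.5). In SL the groups followed as SOX2, FNV (3845.5), miniSOX (2809) and NTC (2197) with no overlap between neighbours, whereas in 2i each group overlapped its neighbour or lay within its range.

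Dnmt3b, the partner enzyme of Dnmt3a, was at 713, 634 and 1716 in NTC in 2i and at 2351 and 2190 in SL. It stood at 681, 617, 1341 and 1563 in SOX2 in 2i and at 3481 and 3681 in SL. The FNV line gave 1931, 1834, 1483 and 2092 in 2i against 4581 and 3966 in SL, and miniSOX 1375 and 1415 against 4972 in both SL libraries. Again no 2i library reached any SL library. Within NTC and SOX2 in 2i the second set stood above the first, and the fitted set term for Dnmt3b was 0.74 ± 0.19 (log2, SE), second set over first. Order in SL was miniSOX (mean 4972), FNV (4273.5), SOX2 (3581) and NTC (2270.5), which do not overlap.

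Dnmt3l, the cofactor of both, was at 1110, 1321 and 411 in NTC in 2i, with p31 far below the other two, and at 4087 and 4178 in SL. The SOX2 line had the lowest mean of any group in 2i, 461, from 344, 300, 628 and 573, and gave 3513 and 3375 in SL. FNV was at 1356, 1389, 1068 and 1316 in 2i against 3862 and 3819 in SL, and miniSOX at 836 and 850 against 3014 and 2837. All SL libraries were above all 2i libraries, with the untransduced cells the highest in SL, the reverse of their place for Dnmt3a and Dnmt3b.

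The maintenance pair moved over a narrower range. Uhrf1 was at 4524, 4667 and 4826 in NTC in 2i, at 5573, 5573, 5395 and 5573 in SOX2, at 5667, 5573, 6245 and 6245 in FNV and at 5475 and 5573 in miniSOX. In SL it stood at 4409 and 4087 in NTC, 3646 and 4137 in SOX2, 3935 and 3481 in FNV and 3646 and 3725 in miniSOX. The lowest 2i library, at 4524, was above the highest SL library, at 4409, so the order of the media was opposite to that of the de novo group. Dnmt1 ran from 2954 and 3325 in FNV in SL, the lowest group, to 5154 in SOX2 p31 and FNV p31 in 2i. All other groups lay between 3819 and 5154. NTC and SOX2 in SL, at 3862 to 3897 and 3966 to 4087, did not overlap each other and lay below SOX2 in 2i (4137 to 5154) and miniSOX in 2i (4232 to 4581) and SL (4409 to 4667).

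Of the Tet genes, Tet1 ranged from 3537 (SOX2 in 2i, replicate 1) to 8024 (SOX2 in SL, replicate 1), with 3646, 5475 and 5330 in the other SOX2 libraries in 2i and 7059 in the other in SL. NTC gave 5330, 5051 and 4232 in 2i against 6245 and 6128 in SL, while FNV overlapped between media, at 4232, 4137, 4901 and 7059 in 2i against 5667 and 4667 in SL. MiniSOX lay between 5154 and 5395 in both media. Tet2 was highest in NTC in 2i, at 3035, 3135 and 3580, against 2240, 2112, 2838 and 3482 in SOX2, 1900, 1775, 1775 and 3514 in FNV, and 2209 and 1857 in miniSOX. The p31 libraries of SOX2 and FNV reached into the NTC range and the others did not. In SL Tet2 lay between 1475 and 2230 in all lines.

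Tet3 differed most between the deposited sets, with a set term of 1.49 ± 0.19 (log2, SE). It stood at 217, 187 and 732 in NTC in 2i, at 84, 92, 292 and 290 in SOX2, at 86, 57, 134 and 152 in FNV and at 111 and 86 in miniSOX. Within each set in 2i the NTC libraries were above those of every rescued line. In SL it was at 155 and 194 in NTC, 222 and 139 in SOX2, 126 and 67 in FNV and 336 and 290 in miniSOX. The panels of values by library show these patterns together.

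**Figure D1:**
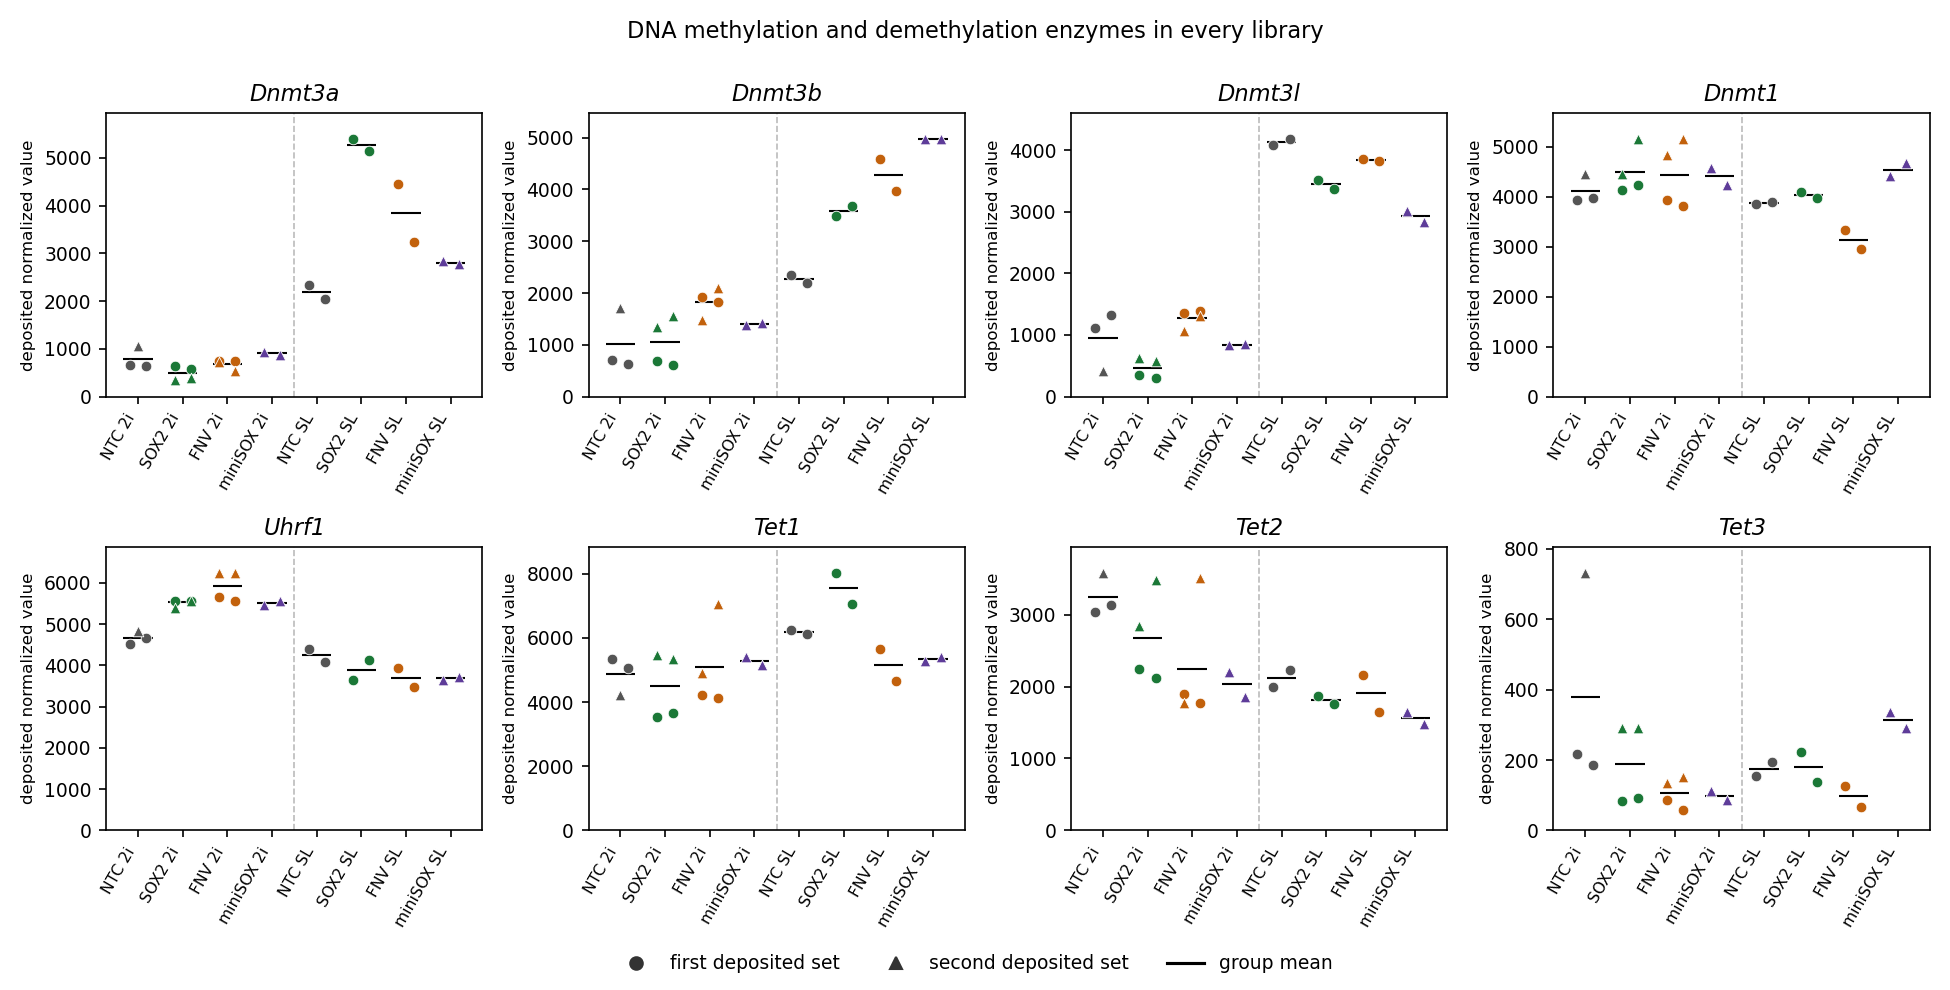
Deposited normalized value (y axis, from 0) of each of the 8 genes in every library, grouped by line and medium on the x axis with 2i left and SL right of the dashed line. Circles are libraries of the first deposited set, triangles those of the second, and bars are group means; Dnmt3a, Dnmt3b and Dnmt3l sit higher in all SL libraries than in any 2i library, and Uhrf1 lower.

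The first comparison asked what 2i changed within each line. Dnmt3a, Dnmt3b and Dnmt3l fell in 2i in all 4 lines, and they were the 3 genes of the 8 called in every one. How many of all genes were called in every line was not counted, so that overlap has no background. Values were tested with limma on log2(value + 1), and a gene was called at a Benjamini-Hochberg adjusted p under 0.05 over all genes. In NTC none of the 8 was called higher and 3 lower, beside 11.9% of all genes higher and 12.8% lower. In SOX2 1 was higher and 5 lower, beside 22.3% and 22.5% of all genes. In FNV 2 were higher and 3 lower (20.3% and 20.4% of all genes), and in miniSOX 1 higher and 4 lower (17% and 16.4%).

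Dnmt3a fell by 1.45 ± 0.26 (log2, SE) in NTC, 2.74-fold (adjusted p = 0.00111, limma). In the SOX2 line it fell by 3.37 ± 0.26, 10.3-fold (adjusted p = 2e-07), in FNV it fell by 2.38 ± 0.26, 5.20-fold (4.61e-06), and in miniSOX it fell by 1.63 ± 0.28, 3.10-fold (0.00043). The same gene thus fell by different amounts, and the difference between the SOX2 and NTC effects was itself called, at -1.92 ± 0.35 (adjusted p = 0.0021). In SL Dnmt3a was higher in both SOX2 libraries than in both of NTC. In 2i the SOX2 libraries other than replicate 1 were below all 3 NTC libraries, but the first set differed little (647 and 581 against 663 and 636). Without NTC p31 (1065) the change from NTC to SOX2 in 2i was -0.20 and was not called. The difference between the media effects held without any 1 library (-2.084 to -1.465). It was lost with replicates 1 and 2 of the first set averaged.

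The log2 change of Dnmt3b was -1.55 ± 0.29 in NTC, -2.25 ± 0.28 in the SOX2 line, -1.59 ± 0.28 in the FNV line and -1.83 ± 0.31 in miniSOX, with adjusted p of 0.00129, 1.86e-05, 0.000365 and 0.000336 (limma). Its fold lay between 2.93 and 4.76, and none of the 4 tested differences between its media effects was called. Dnmt3l fell 4.74-fold in NTC (-2.25 ± 0.39, adjusted p = 0.000877), 7.48-fold in SOX2 (-2.90 ± 0.39, 3.36e-05), 2.88-fold in FNV (-1.52 ± 0.39, 0.00538) and 3.47-fold in miniSOX (-1.79 ± 0.42, 0.00425). With replicates 1 and 2 of the first set averaged, which leaves NTC, SOX2 and FNV in SL with 1 library each, the 3 calls in NTC and that of Dnmt3l in FNV were lost; the lone SL library is then assumed to vary like the other groups. They held when any 1 library was left out. The miniSOX libraries of each medium were then averaged as well, an alternative chosen after seeing the data that leaves 4 residual degrees of freedom. The calls between media that held were Dnmt3a and Dnmt3b in SOX2, and Dnmt3a and Uhrf1 in FNV. The share of all genes called under that setting is not given, so the losses cannot be told from a loss across all genes. All 5 calls between media in miniSOX were lost (Dnmt3a -1.63 with adjusted p = 0.146, Dnmt3b -1.83 with 0.143, Dnmt3l -1.79 with 0.269, Uhrf1 0.58 with 0.0901 and Tet3 -1.67 with 0.0602).

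Markers of other cell types moved between the same groups. In NTC the trophectoderm sum was 1228 to 2748 in 2i and 9418 to 9455 in SL, and the fibroblast sum 134 to 188 in 2i and 519 to 574 in SL. In SOX2, where Dnmt3a fell most, the trophectoderm sum was 825 to 1414 in 2i and 1620 to 2307 in SL, and the fibroblast sum 159 to 216 and 249 to 292. In FNV the trophectoderm sum went the other way, at 5248 to 7362 in 2i and 2452 to 2465 in SL. Krt8 and Krt18 made most of the sum in NTC in SL (means 4891.5 and 3294.5) and in FNV in 2i (3175.75 and 2212). In FNV, Cdx2 and Gata3 also had higher means in 2i, while Eomes, Elf5, Tfap2c and Krt7 had higher means in SL. In SOX2, Cdx2, Gata3 and Tfap2c had lower means in SL than in 2i, and the rest of the list higher. The FNV fibroblast sum was 133 to 213 in 2i and 973 to 1022 in SL, where Thy1 alone gave 523 and 530. That of the 4 measured primitive endoderm markers was 6113 to 8591 in 2i and 13858 to 30549 in SL. Nearly all of it in SL was Sox17 (13693 and 30391). The other markers had lower means in SL than in 2i: Gata6 0.5 against 327.5, Dab2 132.5 against 4504.75 and Pdgfra 28.5 against 43. Whether RNA of the transduced factor was counted as Sox17 was not tested. The miniSOX line had the widest trophectoderm range, 2585 to 2648 in 2i and 16056 to 16172 in SL, and a fibroblast sum of 204 to 312 and 1840 to 2005. Its trophectoderm markers did not move together: Krt8 had means of 1192 in 2i and 8146.5 in SL, but Cdx2 96 and 0.5. Cdx2 was called higher in 2i in NTC (3.67 ± 1.05), FNV (6.43 ± 1.03) and miniSOX (6.09 ± 1.12), and was not called in SOX2. Of the 8 formative and primed markers, a list that holds Dnmt3b itself, 4 fell and 2 rose in 2i in NTC, and 6, 8 and 7 fell in the SOX2, FNV and miniSOX lines. The part of these cells in the de novo changes was not tested.

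Uhrf1 rose in 2i in the 3 rescued lines, by 0.48 ± 0.07 in SOX2, 0.65 ± 0.07 in FNV and 0.58 ± 0.08 in miniSOX, or 1.39-, 1.56- and 1.50-fold (adjusted p = 0.000126, 7.81e-06 and 6.41e-05, limma). In NTC its change of 0.12 ± 0.08 did not pass (adjusted p = 0.296, 95% interval -0.05 to 0.28), although the 3 NTC libraries in 2i lay above the 2 in SL. The media effect was larger than in NTC by 0.36 ± 0.10 in SOX2, 0.53 ± 0.10 in FNV and 0.47 ± 0.11 in miniSOX (adjusted p = 0.0228, 0.00153 and 0.0118). The SOX2 difference was lost without NTC replicate 1 in SL or SOX2 replicate 1 in SL (0.31 and 0.27), and the miniSOX difference without NTC replicate 1 in SL (0.41, adjusted p = 0.0611). Dnmt1, which Uhrf1 recruits, rose in 2i only in FNV among the 4 tests (0.36 ± 0.08, 1.29-fold, adjusted p = 0.00208), and this effect was larger than that of NTC (0.36 ± 0.11, 0.0248) and of SOX2 (0.34 ± 0.11, 0.0375). The call of the Dnmt1 rise in FNV held without any 1 library (0.28 to 0.45). It was lost with replicates 1 and 2 of the first set averaged, and with the FNV groups fitted alone. The difference from NTC was lost without NTC p31 in 2i, either NTC library in SL or FNV replicate 2 in SL, at 0.28 to 0.45 over the libraries left out. That from SOX2 was lost without any of 7 of the 21 libraries: SOX2 replicate 1 or p21 or FNV replicate 1 or p31 in 2i, or either SOX2 library or FNV replicate 2 in SL (0.25 to 0.42 over all 21). In SOX2 12 of 21 S-phase genes fell in 2i and 2 rose, and in FNV 8 fell and 3 rose, while Uhrf1, whose RNA is known to follow the cell cycle, rose in both. The part of the cell cycle was not tested.

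Tet1 fell in 2i in SOX2 alone of the 4 lines tested (-0.94 ± 0.19, 1.92-fold, adjusted p = 0.000874, limma). It changed by -0.46 ± 0.19 in NTC (adjusted p = 0.0898), and the difference between FNV and SOX2 effects, 0.72 ± 0.25, just missed the threshold (adjusted p = 0.0519). Tet2 was not called in any line; in NTC it was higher in 2i in every library, by 0.48 ± 0.21 (adjusted p = 0.117). Tet3 fell in 2i in SOX2 (-0.88 ± 0.29, adjusted p = 0.0236) and miniSOX (-1.67 ± 0.32, 3.17-fold, adjusted p = 0.000934). The miniSOX libraries are all of the second set, so that change is a comparison of raw values within 1 set, 111 and 86 against 336 and 290; it was not called in the fit with no set term. The SOX2 call depended on the set term, without which the change was -0.13, and was lost without SOX2 replicate 1 or 2 in 2i (-0.78 and -0.85) or replicate 1 in SL (-0.54). The media effect on Tet3 differed from that in NTC by -1.21 ± 0.40 in SOX2 (adjusted p = 0.0464) and by -2.00 ± 0.43 in miniSOX (0.00706). The first of these was lost in 14 of the 21 fits that each left out 1 library, with values from -1.55 to -0.88 over all 21, and neither was called without the set term.

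**Figure D2:**
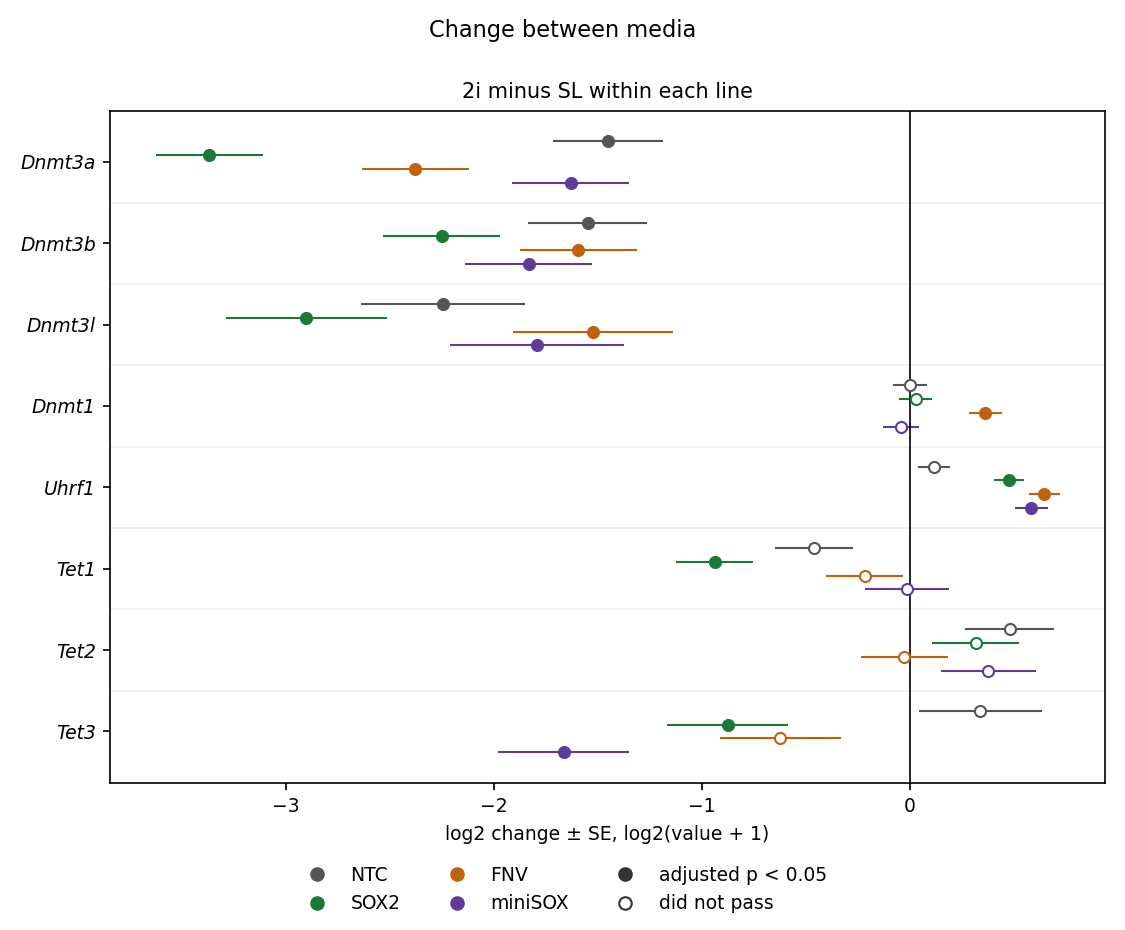
Log2 change of each gene between media, 2i minus SL, on log2(value + 1), with its SE as a bar and the 4 lines in colour. Filled points passed adjusted p under 0.05 and open points did not; the 3 de novo genes are left of 0 in every line, from -1.45 to -3.37, and Uhrf1 is right of 0 and passed in the 3 rescued lines.

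The second comparison set each rescued line against untransduced cells in the same medium. In 2i Tet3 fell in all 3 rescued lines, and it was the only gene of the 8 called in each. How many of all genes were called in each of the 3 was not counted, so that overlap has no background. SOX2 had 1 of the 8 higher and 3 lower, where 14.4% of all genes were called higher and 14.3% lower. FNV had 2 higher and 2 lower (19.7% and 20% of all genes), and miniSOX none higher and 2 lower (14.3% and 13.5%). Tet3 fell 2.29-fold in SOX2 (-1.20 ± 0.24, adjusted p = 0.00224, limma), 3.65-fold in FNV (-1.87 ± 0.24, 2.79e-05) and 6.27-fold in miniSOX (-2.65 ± 0.32, 2.99e-05). Inside the first set alone the changes were -1.19 in SOX2 and -1.51 in FNV, and inside the second set -1.33, -2.35 and -2.89 in SOX2, FNV and miniSOX, all called, those of the second set against NTC p31 alone (732), the library whose markers stood apart. The first-set values do not use NTC p31, and without it all 3 changes in the joint fit were still called. Over all 21 libraries left out they ran from -1.31 to -1.01 in SOX2, -2.10 to -1.69 in FNV and -2.83 to -2.40 in miniSOX. The part of the p31 markers in the Tet3 result was not tested. Without a set term the change in miniSOX was -1.66 and was not called (adjusted p = 0.0849), nor was that in SOX2 (-0.95, 0.254). These comparisons share the 3 NTC libraries. With replicates 1 and 2 averaged in all lines, miniSOX included, only the calls of Tet3 in FNV and miniSOX in 2i held against NTC. The share of all genes called under that setting is not given, so the other losses cannot be told from a loss across all genes.

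Tet2 fell in FNV (-0.67 ± 0.17, 1.59-fold, adjusted p = 0.00701) and in miniSOX (-0.96 ± 0.23, 1.94-fold, 0.00594), and changed by -0.38 in SOX2 (adjusted p = 0.123). In the second set alone, against the 1 NTC library there, neither passed (-0.52 in FNV and -0.82 in miniSOX). The miniSOX call was lost without a set term (-0.68) and without miniSOX replicate 2 in 2i (-0.83). Uhrf1 rose in SOX2 (0.23 ± 0.06, adjusted p = 0.0119) and FNV (0.33 ± 0.06, 0.000629), the first not called inside the second set alone. In miniSOX it was higher by 0.20 ± 0.08, which missed the threshold (adjusted p = 0.0822), with both libraries, 5475 and 5573, above the 3 NTC libraries.

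Other de novo genes were called in the SOX2 line than in the FNV line in 2i. In SOX2, Dnmt3a fell by 0.65 ± 0.22 (adjusted p = 0.0354) and Dnmt3l fell by 0.92 ± 0.32 (0.0455), and in FNV Dnmt3b rose by 0.86 ± 0.24, 1.82-fold (0.00901). The values of all 3 inside the second set differ from those inside the first and again compare with NTC p31 alone, so they are values of that library against the others and the difference between sets was not tested. The Dnmt3a fall was -0.08 in the first set and -1.52 in the second, and was lost without NTC p31 (-0.20), SOX2 p21 (-0.53) or SOX2 p31 in 2i (-0.60). The Dnmt3l change was -1.91 in the first set and 0.54 in the second, where it had the opposite sign and was not called (adjusted p = 0.0701). It held in 4 of 21 fits that left out 1 library, those without NTC p31 (-1.63), SOX2 p21 (-1.12), SOX2 p31 (-1.07) or FNV p21 (-0.93) in 2i, and was as small as -0.62 in the others. The Dnmt3b rise was 1.48 in the first set (adjusted p = 6.01e-06) and 0.04 in the second (0.949). Dnmt3l in FNV, at 0.62 ± 0.32 (adjusted p = 0.151), changed sign to -0.10 without NTC p31. In FNV in 2i the sum of the 4 measured primitive endoderm markers, which hold Sox17, was 6113 to 8591 against 279 to 507 in NTC, and the trophectoderm sum 5248 to 7362 against 1228 to 2748; their part in the FNV results was not tested.

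In SL, the SOX2 line raised Dnmt3a 2.40-fold over NTC (1.27 ± 0.28, adjusted p = 0.00776, limma), the 1 gene of the 8 called there, with 7.35% of all genes called higher and 7.63% lower. That call was lost without NTC replicate 2 in SL (1.17, adjusted p = 0.0603). Dnmt3b was also higher in both SOX2 libraries, by 0.66 ± 0.31, which did not pass (adjusted p = 0.164). FNV had 2 of the 8 higher and 2 lower (14.2% and 15.8% of all genes). Dnmt3a rose by 0.79 ± 0.28 (adjusted p = 0.0456) and Dnmt3b by 0.91 ± 0.31 (0.0362), and Dnmt1 fell by 0.31 ± 0.09 (0.0155) and Tet3 fell by 0.91 ± 0.32 (0.0421). The Dnmt3a call held in 8 of 21 fits without 1 library (0.56 to 1.02) and the Tet3 call in 12 (-1.36 to -0.46). The Dnmt3b call was lost without any 1 of the 4 SL libraries it compares (0.81 to 1.01), and the Dnmt1 call without either NTC library in SL or FNV replicate 2 in SL (-0.39 to -0.22).

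MiniSOX in SL had none of the 8 higher and 1 lower (9.44% and 10.2% of all genes): Tet2 fell by 0.86 ± 0.27 (adjusted p = 0.0353). Its raw values were 1647 and 1475 in miniSOX against 1998 and 2230 in NTC. The call was lost without a set term, and in 8 of the 21 fits without 1 library (-0.99 to -0.71), those without any of the 4 SL libraries compared, SOX2 replicates 1, 2 or p31 in 2i or FNV replicate 2 in 2i. Tet3 shows how far this comparison leans on the set term: at 336 and 290 its miniSOX libraries were above both NTC libraries, at 155 and 194, the fit gave -0.64 ± 0.37 (adjusted p = 0.252), and without a set term the change was 0.84. No direction is read from it. In SL the fibroblast and trophectoderm sums were 1840 to 2005 and 16056 to 16172 in miniSOX against 519 to 574 and 9418 to 9455 in NTC, and their part was not tested.

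**Figure D3:**
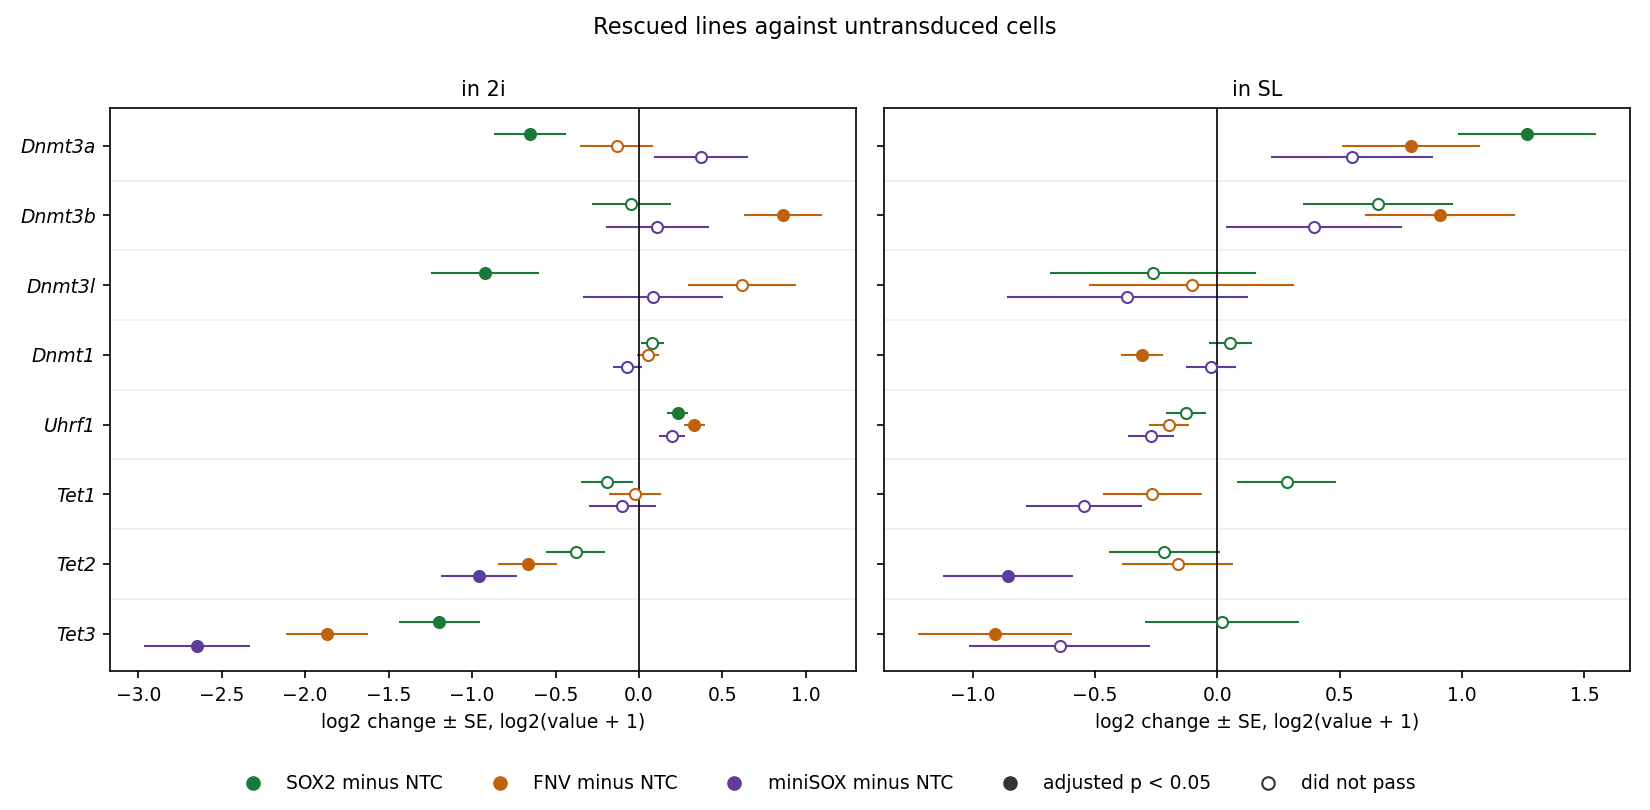
Log2 change of each gene in the SOX2, FNV and miniSOX lines against untransduced NTC cells, in 2i (left) and SL (right), on log2(value + 1), with its SE as a bar. Filled points passed adjusted p under 0.05; in 2i Tet3 is left of 0 and filled in all 3 lines, from -1.20 to -2.65, and in SL Dnmt3a is right of 0 and filled in SOX2 and FNV.

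The third comparison was between the rescued lines, which share transduction, silencing of SOX2 and doxycycline. In 2i, FNV against SOX2 had 2 of the 8 higher and 1 lower (12.4% and 12.9% of all genes). Dnmt3l was 2.90-fold higher in FNV (1.54 ± 0.30, adjusted p = 0.00162, limma), with all 4 FNV libraries, 1068 to 1389, above all 4 SOX2 libraries, 300 to 628. It was called inside each set, at 2.09 in the first and 0.98 in the second, and without each library in turn. Markers differed between the same groups: the primitive endoderm sum was 6113 to 8591 in FNV against 639 to 1469 in SOX2, and the trophectoderm sum 5248 to 7362 against 825 to 1414, and their part was not tested. Dnmt3b was 1.88-fold higher (0.91 ± 0.22, adjusted p = 0.00661), but by 1.54 in the first set and 0.28 in the second, where it was not called (0.428). Dnmt3a was higher by 0.52 ± 0.20, which missed the threshold (adjusted p = 0.0711). Tet3 was lower in FNV (-0.67 ± 0.22, adjusted p = 0.0391), a call lost without any 1 of the 4 SOX2 libraries in 2i or of FNV replicate 2, p21 or p31 in 2i (-0.87 to -0.55 over all libraries left out).

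MiniSOX against SOX2 in 2i had 1 of the 8 higher and 1 lower (7.32% and 7.57% of all genes). Its primitive endoderm sum was 4413 to 4665 and its trophectoderm sum 2585 to 2648, both above those of SOX2, and their part was not tested. Dnmt3a was 2.03-fold higher in miniSOX (1.02 ± 0.26, adjusted p = 0.0161), 943 and 870 against 343 and 399 in the SOX2 libraries of the same set. This call was lost without either miniSOX library in 2i or SOX2 p21 (0.96, 1.08 and 0.82). Tet3 was lower in miniSOX (-1.45 ± 0.29, adjusted p = 0.00426), 111 and 86 against 292 and 290 in the same set, and was lost without miniSOX replicate 2 in 2i (-1.27, adjusted p = 0.0655). Dnmt3l was higher by 1.01 ± 0.39, which did not pass (adjusted p = 0.0982). Of miniSOX against FNV in 2i none of the 8 was called by limma, with 7.66% of all genes called. The largest differences were -0.75 ± 0.28 for Dnmt3b (adjusted p = 0.114, 95% interval -1.36 to -0.14) and -0.78 ± 0.29 for Tet3 (0.114, -1.41 to -0.15), so differences of those sizes remain possible.

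In SL, FNV against SOX2 had none of the 8 higher and 2 lower (10.2% and 11.2% of all genes): Dnmt1 fell by 0.36 ± 0.09 (adjusted p = 0.00904) and Tet3 fell by 0.93 ± 0.32 (0.0495). The first was lost without SOX2 replicate 1 or FNV replicate 2 in SL (-0.34 and -0.28), and the second held in only 5 of 21 fits without 1 library (-1.38 to -0.48). MiniSOX against SOX2 had none higher and 1 lower (10.4% and 11.2%): Tet1 fell by 0.83 ± 0.24 (adjusted p = 0.022), from 5265 and 5395 against 8024 and 7059. It was lost without a set term (-0.50), without SOX2 replicate 1 in SL (-0.74) and without either miniSOX library in SL (-0.81 and -0.85). None of the 8 was called between miniSOX and FNV in SL, where 15.2% of all genes were. With replicates 1 and 2 averaged in all lines, the calls between rescued lines in the 2 media did not hold. The share of all genes called under that setting is not given. These losses therefore cannot be told from a loss across all genes.

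**Figure D4:**
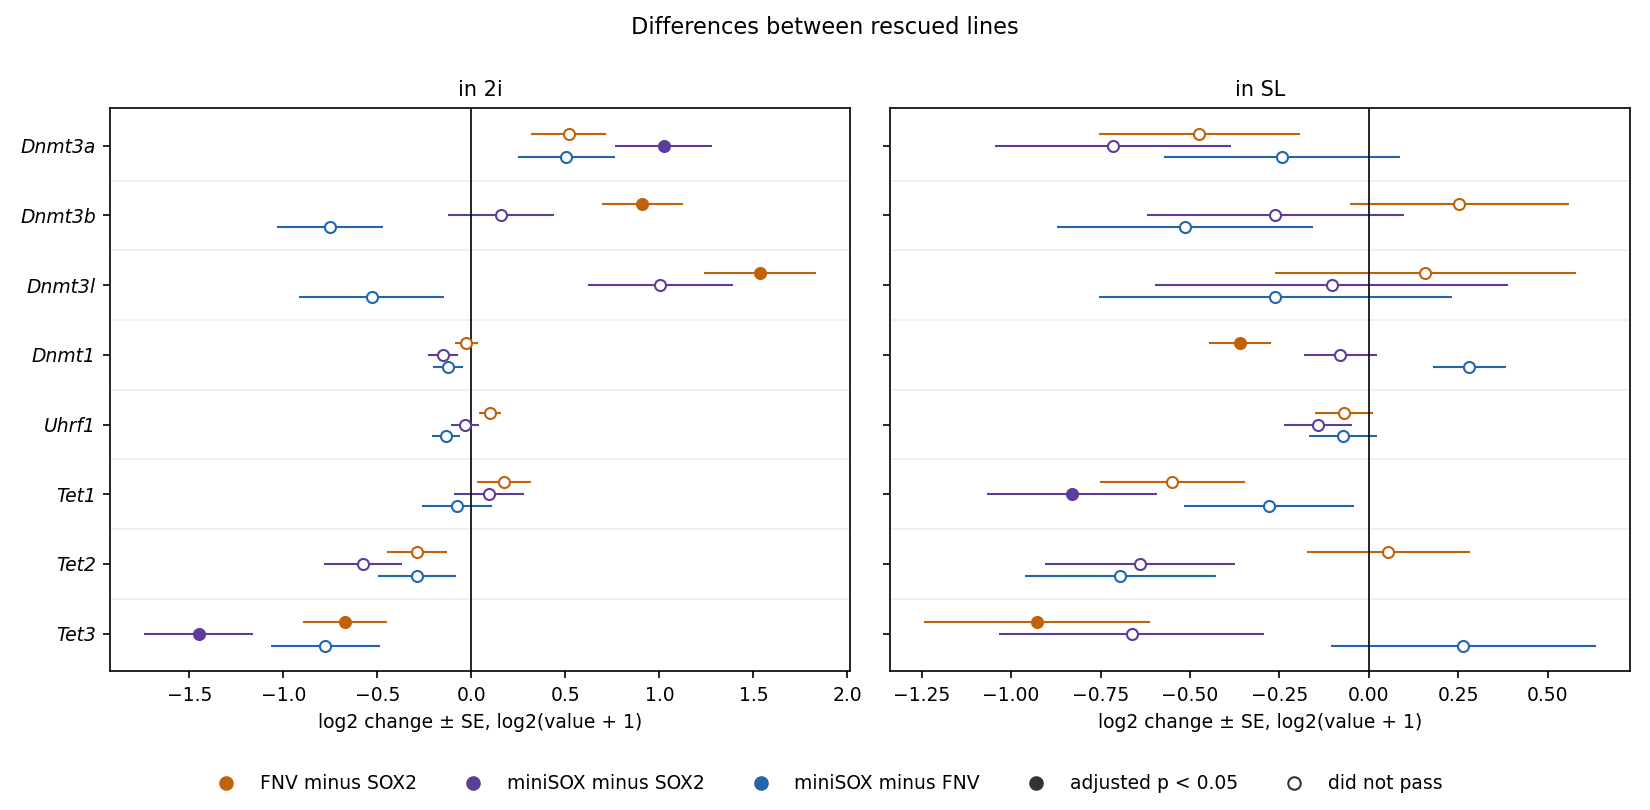
Log2 difference of each gene between pairs of rescued lines in 2i (left) and SL (right), on log2(value + 1), with its SE as a bar. Filled points passed adjusted p under 0.05; the Dnmt3l point of FNV minus SOX2 in 2i is at 1.54, and no point of miniSOX minus FNV is filled.

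Differences between media effects were tested in 4 pairs. Of the 8 genes 1 was higher and 2 lower for SOX2 minus NTC (9.82% and 9.01% of all genes), and 2 higher and none lower for FNV minus NTC (13.4% and 12.4%). For miniSOX minus NTC 1 was higher and 1 lower (7.71% and 5.96%), and for FNV minus SOX2 1 higher and none lower (10.7% and 10.1%). The values of these calls stand above with their genes. Of the 8 calls, only that of Uhrf1 in FNV minus NTC held under every planned setting and every library left out. With replicates 1 and 2 averaged in all lines the calls did not hold. The share of all genes called under that setting is not given, so these losses cannot be told from a loss across all genes. Dnmt3a and Dnmt3l had smaller media effects in FNV than in SOX2, by 0.99 ± 0.34 and 1.38 ± 0.51, and neither passed (adjusted p = 0.0542 and 0.0715).

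Genes that act on or with the 8 were followed in 7 lists, tested over all genes in the same fit. Their counts can be read against the shares of all genes given above for each comparison, and every change named below passed the test. Of 42 values that passed and are given below, 24 passed also with replicates 1 and 2 averaged in all lines. Among 12 genes known to regulate the enzymes, 4 rose and 2 fell in 2i in untransduced cells, 5 and 4 in SOX2, 2 and 8 in FNV, and 5 and 3 with miniSOX. Prdm14, a factor known to repress Dnmt3b and Dnmt3l, rose in 2i in every line, by 2.14 ± 0.13 in untransduced cells, by 2.20 ± 0.13 and 0.90 ± 0.13 in the SOX2 and FNV lines and by 2.37 ± 0.14 in miniSOX. Lin28a, an RNA-binding protein of the let-7 pathway, fell in every line, with log2 changes of -3.42 in untransduced cells, -6.51 in SOX2, -6.01 in FNV and -4.71 in miniSOX. Nanog, a core pluripotency factor, rose by 2.01 in SOX2 and 2.14 in miniSOX, and Klf4, another, by 2.92 in NTC. The list's median change was 0.31, -0.11, -0.57 and -0.08 in the 4 lines, where the median over all genes was within 0.03 of 0. In FNV in SL, 6 of the 12 were higher than in NTC and none lower, among them Klf4 (3.57 ± 0.26) and Nanog (1.25 ± 0.15).

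Of 18 partners of methylation, such as the replication and heterochromatin proteins that act with Dnmt1 and Uhrf1, 2 rose and 3 fell in 2i in NTC, 1 and 6 in SOX2, 7 and 3 in FNV and 5 and 3 in miniSOX. Hells, a remodeller needed for methylation of repeats, changed by -0.68 ± 0.10 in SOX2 and -0.55 ± 0.10 in FNV, both lower. The FNV value was not called without a set term or with the 2 groups alone, and was -0.35 without FNV replicate 1 in SL, still called. The list's median change was 0.03, 0.07, 0.13 and 0.06 in the 4 lines. Lig1, the ligase of replicating DNA, rose by 0.69 ± 0.09 in miniSOX. Against NTC in 2i Dppa3, a protein known to displace Uhrf1 from chromatin, rose by 2.27 ± 0.24 in FNV (adjusted p = 3.7e-06) and 2.02 ± 0.31 in miniSOX (0.000254). It was also higher in FNV than in SOX2, by 2.50 ± 0.22 (2.12e-06). The miniSOX rise was not called inside the second set alone. Cdca7, the partner of Hells, fell in FNV by 0.71 ± 0.08, a call also missed inside the second set alone (-0.63, adjusted p = 0.0507), and Kdm2b, which binds unmethylated CpG islands, rose in SOX2 by 1.42 ± 0.14.

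Of 18 genes of demethylation and base repair, 3 rose and none fell in 2i in NTC by limma, 6 rose and 3 fell in SOX2, 5 and 4 in FNV, and 4 and 1 in miniSOX. Tdg, the glycosylase that excises the oxidised bases the Tet enzymes make, fell in FNV (-0.80 ± 0.11) and miniSOX (-1.07 ± 0.12), and was also lower in FNV than in NTC in 2i (-0.63 ± 0.09). Xrcc1, a scaffold of the repair that follows, rose by 1.23 ± 0.19 in NTC, and Gadd45b, a stress-induced protein linked to demethylation, by 3.41 ± 0.33 in SOX2. The median change of the list was 0.02, 0.36, -0.21 and 0.13 in the 4 lines. A reader list held 9 genes of the families of methylated DNA readers, not all of which bind methylated DNA. Of these, 3 rose and none fell in NTC, 2 and 1 in SOX2, 5 and 1 in FNV and 2 and 1 in miniSOX. Mbd2 rose by 1.71 ± 0.16 in FNV, Mbd6 by 1.06 ± 0.26 in NTC (not called without NTC replicate 1 in SL, at 0.68) and Zbtb4 by 2.10 ± 0.51 in miniSOX, while Mbd3 fell by 1.03 ± 0.18 in SOX2. The reader list's medians were 0.37, -0.02, 0.61 and 0.03.

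The 14 genes that supply the methyl donor and ketoglutarate, the cosubstrate of the Tet enzymes, had none called in NTC, 5 higher and 5 lower in SOX2, 3 and 2 in FNV and 4 and 1 in miniSOX. Idh2, the mitochondrial enzyme that makes ketoglutarate from isocitrate, rose in 2i in the 3 rescued lines, by 1.70 ± 0.18 in SOX2, 2.67 ± 0.18 in FNV and 2.17 ± 0.19 in miniSOX. The supply list's medians were 0.25, 0.02, 0.02 and 0.14. The 20 germline genes known to be silenced by promoter methylation were split: 6 rose and 3 fell in 2i in NTC, 6 and 8 in SOX2, 9 and 6 in FNV and 5 and 7 in miniSOX. Fkbp6, a meiotic gene, rose by 2.26 ± 0.22 in NTC and 2.59 ± 0.22 in FNV, and Dazl, a germ cell RNA-binding protein, by 1.91 ± 0.31 in NTC. Tex19.1, another of the list, fell in SOX2 (-2.40 ± 0.24) and miniSOX (-1.76 ± 0.27), so the list had no common direction, and its medians were 0.10, -0.06, 0.34 and -0.00. In the 21 S-phase genes, 2 rose and 4 fell in NTC and 2 rose and 6 fell in miniSOX, beside the counts given above for SOX2 and FNV. Chaf1a, a subunit of the replication-coupled histone chaperone, fell by 0.52 ± 0.07 in SOX2. Pola1, a subunit of DNA polymerase alpha, fell by 0.58 ± 0.06 in FNV and rose by 0.35 ± 0.06 in NTC, and E2f1, a factor of entry into S phase, rose by 1.54 ± 0.19 in miniSOX. The S-phase medians were -0.12, -0.31, -0.19 and 0.03.

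**Figure D5:**
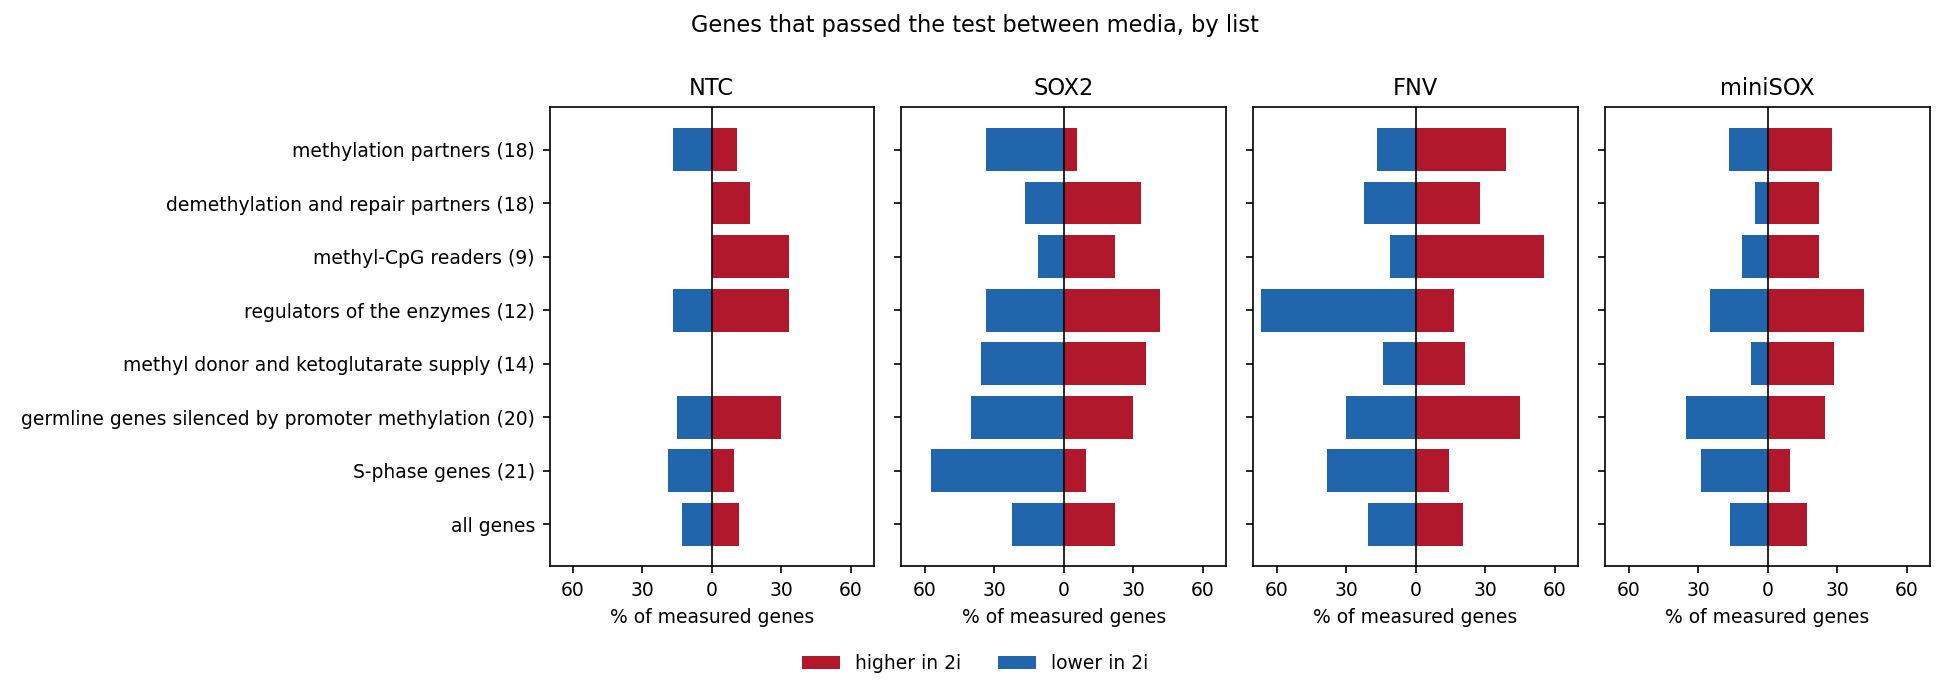
Percent of the measured genes of each list that passed adjusted p under 0.05 between media, higher in 2i (red, to the right) or lower (blue, to the left), with the number measured in brackets and all genes in the last bar. Regulators of the enzymes have 8 of 12 lower in FNV, and S-phase genes 12 of 21 lower in SOX2.

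The genes whose pattern over the 21 libraries was most like each member were found by Pearson correlation of log2(value + 1) over 14265 genes, as a description. The libraries share media and lines, so a high value reflects those groups. Dnmt3a was closest to Foxp1 (0.96), Efr3b (0.953) and Spag1 (0.95). Efr3b is also on chromosome 12, 48111 bases away from Dnmt3a, and genes between them were not looked for. Dnmt3b was closest to Coro2a (0.965), Slc16a13 (0.949) and Fam83h (0.941), and Dnmt3l to Grb7 (0.926), Rad17 (0.90) and Wdr47 (0.899). Uhrf1 had Slc1a1 (0.964), Dcbld2 (0.962) and Lrrc75a (0.961), and Dnmt1 Slc35c1 (0.883), Zbtb11 (0.88) and Smarcc1 (0.868). The Tet genes had weaker likenesses on the whole: U2surp (0.875) for Tet1, Tagln3 (0.909) for Tet2 and Socs6 (0.871) for Tet3. Among the members, the de novo genes were alike, at 0.79 for Dnmt3a with Dnmt3b, 0.815 for Dnmt3a with Dnmt3l and 0.775 for Dnmt3b with Dnmt3l, and Dnmt3a ran opposite to Uhrf1, at -0.85.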

How the data were processed

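RNA of 21 libraries had been made into 1 table; RSEM, Bowtie2 2.0 and the build mm10 are named in the submitters' processing notes, and no source used here names the normalization. The deposited values are a score: whole numbers normalized between libraries and rounded, not counts. Columns were matched to samples by name; 5 columns named p21 or p31 show the group only. log2(value + 1) was fitted with limma 3.58.1 (R 4.3.3; lmFit, eBayes with trend and robust) in 1 model of 8 groups and the deposited set, with 12 residual degrees of freedom, and p-values were adjusted over 16443 genes; nothing was filtered. Intervals are 95%. The fit was run on simulated data with independent libraries and no set effect, so that check does not cover the set term or replicates that were not grown apart. The members and lists were chosen with earlier results of these data known. Named were the 8 members, of each list up to 3 genes with the smallest adjusted p in a contrast described (other contrasts of a named gene beside it), and for each member up to 3 most correlated genes. Replicate numbers did not pair the libraries: of 28 pairs of groups, 0 had deviations correlated over 0.1. Leave-out, scaling, pseudocount, set and block alternatives were run. Figures used matplotlib.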

Additional observations from a re-analysis of the deposited data

Results flagged for a closer look

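The groups of 4 libraries, SOX2 and FNV in 2i, were examined gene by gene, which made 16 cases. Of these, 3 met the test for a library far from the others. In single independent samples chance does this in about 1 case in 20. The cases share the same libraries and each mixes both deposited sets, so that rate does not hold for them. FNV p31 in 2i did so for Dnmt3a (532, the others 730 to 749) and for Tet2 (3514, the others 1775 to 1900). The third, SOX2 p21 in 2i for Uhrf1 (5395), met it because the other 3 libraries share the value 5573 on the grid of the table. With 3 equal values any other value would, and nothing is read from that case.

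The effect of 2i differed between lines by a test of the difference in 8 cases. SOX2 differed from NTC by -1.92 for Dnmt3a, 0.360 for Uhrf1 and -1.21 for Tet3, FNV from NTC by 0.362 for Dnmt1 and 0.530 for Uhrf1, miniSOX from NTC by 0.468 for Uhrf1 and -2.00 for Tet3, and FNV from SOX2 by 0.335 for Dnmt1.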

How the results depend on the processing

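Of 51 calls on the 8 genes, 5 held under every setting and every library left out, and 30 under all 21 libraries left out. The 5 were Dnmt3a and Dnmt3b between media in SOX2, Dnmt3a and Uhrf1 between media in FNV, and Tet3 in FNV against NTC in 2i. Averaging replicates 1 and 2 of the first set left 12 of 19 calls between media, 4 of 16 against NTC, 2 of 8 between rescued lines and 2 of 8 differences between media effects. Averaging those of miniSOX too, chosen after seeing the data, left 4, 2, 0 and 0 by limma, with 17, 7, 5 and 5 at an unadjusted p under 0.05. Without a set term the last 3 were 7, 4 and 3. The first set alone gave 14 differences between media effects, against 6 from both sets. With 1 library left out the 4 counts ran from 18 to 20, 9 to 22, 5 to 13 and 4 to 11. With a replicate block they were 19, 14, 8 and 8. List calls between media were tried under settings chosen after seeing the data: averaging left 14 of 30 for methylation partners, 10 of 26 for demethylation, 6 of 15 for readers, 10 of 20 for supply, 21 of 50 for germline and 14 of 39 for S-phase genes, and S-phase calls were 22 without a set term. Averaging miniSOX too left 0 for methylation partners by limma (14 unadjusted), 2 for demethylation, 2 for readers, 14 of 33 for regulators, 4 for supply, 6 for germline and 1 for S-phase genes. Of 42 values given for list genes, 23 held throughout. Signs reversed for Dnmt3l in SOX2 against NTC in 2i (0.54 in the second set alone), Dnmt3l in FNV against NTC in 2i (-0.10 without NTC p31, and -0.10 to 0.92 over all libraries left out), and Tet3 in miniSOX against NTC in SL (0.84 without a set term or with those groups alone). Beyond averaging and library loss, which leave fewer libraries, the cause was not tested. The share of all genes called after averaging is not given, so losses among the 8 genes cannot be told from a loss across all genes. Values per length were not run, since levels of different genes were not compared. Depth is unknown and limits precision by an amount that cannot be given.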
